A study of Mus musculus with 12 samples.

Results

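The T cell antigen receptor complex and the kinases, adaptors, effectors and restraining enzymes that act just after it were described here as a list of 43 genes named by their known roles, and the list was drawn up with earlier results of these data known. A probe set naming that gene alone was found for 42 of the 43 among the 12609 genes tested, and where a gene had several, the brightest over the 12 arrays was read. Lck, the Src-family kinase that starts the cascade, had no probe set naming it alone, and its level was not analysed here. All 42 measured members passed the filter on low values, a mean log2 level of 4.05 over the 12 arrays. Txk passed only through the arrays labelled iFoxA1Treg, since its mean lay below that level in the other 3 groups.

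The samples were RNA from 4 populations labelled as T cells, from C57BL/10.RIII mice, hybridised to 12 Affymetrix Mouse430_2 arrays with 3 arrays a group, in a study of FoxA1+ regulatory T cells in experimental autoimmune encephalomyelitis (EAE), a mouse model of multiple sclerosis. iFoxA1Treg cells were labelled as induced by IFN-beta, CD4hi and PD-L1hi. nFoxA1Treg cells, also labelled CD4hi and PD-L1hi, were titled as induced by neurons, while their cell type field reads natural. Treg cells were labelled CD4+ and TGFbeta+. EncT, the encephalitogenic T cells that transfer or drive the disease, were labelled CD4+ and served as the comparison for the other groups. Age, sex, number of animals and the way each population was grown or sorted were not given in the labels used here. The labels also do not say whether the 3 arrays of a group came from separate animals or cultures, so the p-values measure the spread between these samples, which may be technical.

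The receptor itself has no kinase. Peptide bound to MHC is read by the variable chains, and the signal passes through the CD3 and zeta chains, whose tyrosine motifs are phosphorylated by Lck and then hold Zap70. Zap70 phosphorylates Lat and Lcp2, on which Plcg1, Vav1, the Tec-family kinases and Grap2 assemble, and diacylglycerol and calcium then lead to Ras, to the Malt1 and Bcl10 complex and to the NFAT factors. Phosphatases, diacylglycerol kinases and ubiquitin ligases restrain the cascade, and in regulatory T cells the strength of this signal is known to bear on their development and function.

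The group labelled iFoxA1Treg did not resemble the other 9 arrays. Across all probe sets, which are not independent of each other, their Pearson correlation with arrays of other groups was 0.683 to 0.739, against 0.815 to 0.847 between arrays of nFoxA1Treg, Treg and EncT. Cd4, the coreceptor by which all 4 populations were labelled, had log2 levels of 4.35, 4.24 and 4.14 in the arrays labelled iFoxA1Treg, against 10.48, 10.48 and 10.36 in nFoxA1Treg, 10.34, 10.37 and 10.45 in Treg, and 10.56, 10.57 and 10.59 in EncT. The coreceptor transcript thus ran against the CD4hi label in the arrays labelled iFoxA1Treg. In nFoxA1Treg, also labelled CD4hi, it lay below every EncT array, which is labelled CD4+. Summed linear levels of 14 measured B cell markers were 37409 to 40116 in the arrays labelled iFoxA1Treg, against 271 to 324 in nFoxA1Treg, 292 to 355 in Treg and 322 to 440 in EncT. The corresponding sums for 15 macrophage and monocyte markers were 22315 to 23117, against 221 to 265, 275 to 301 and 438 to 570 in the same order of groups. For 10 dendritic cell and MHC class II markers they were 16218 to 16918, against 128 to 276, 273 to 341 and 503 to 593, and for 5 neutrophil markers 28400 to 28780, against 29 to 40, 32 to 53 and 27 to 51. Xist, the RNA that silences 1 X chromosome in female cells, averaged 2.11 ± 0.85 in the arrays labelled iFoxA1Treg, against 11.47 ± 0.27 in nFoxA1Treg, 11.52 ± 0.27 in Treg and 11.07 ± 0.44 in EncT (log2, SD, n = 3 each). All results on iFoxA1Treg below therefore speak of arrays with that label, and there the label, these markers and the sex of the RNA cannot be told apart. In bulk RNA, fewer T cells and less RNA per T cell cannot be told apart either.

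**Figure D1:**
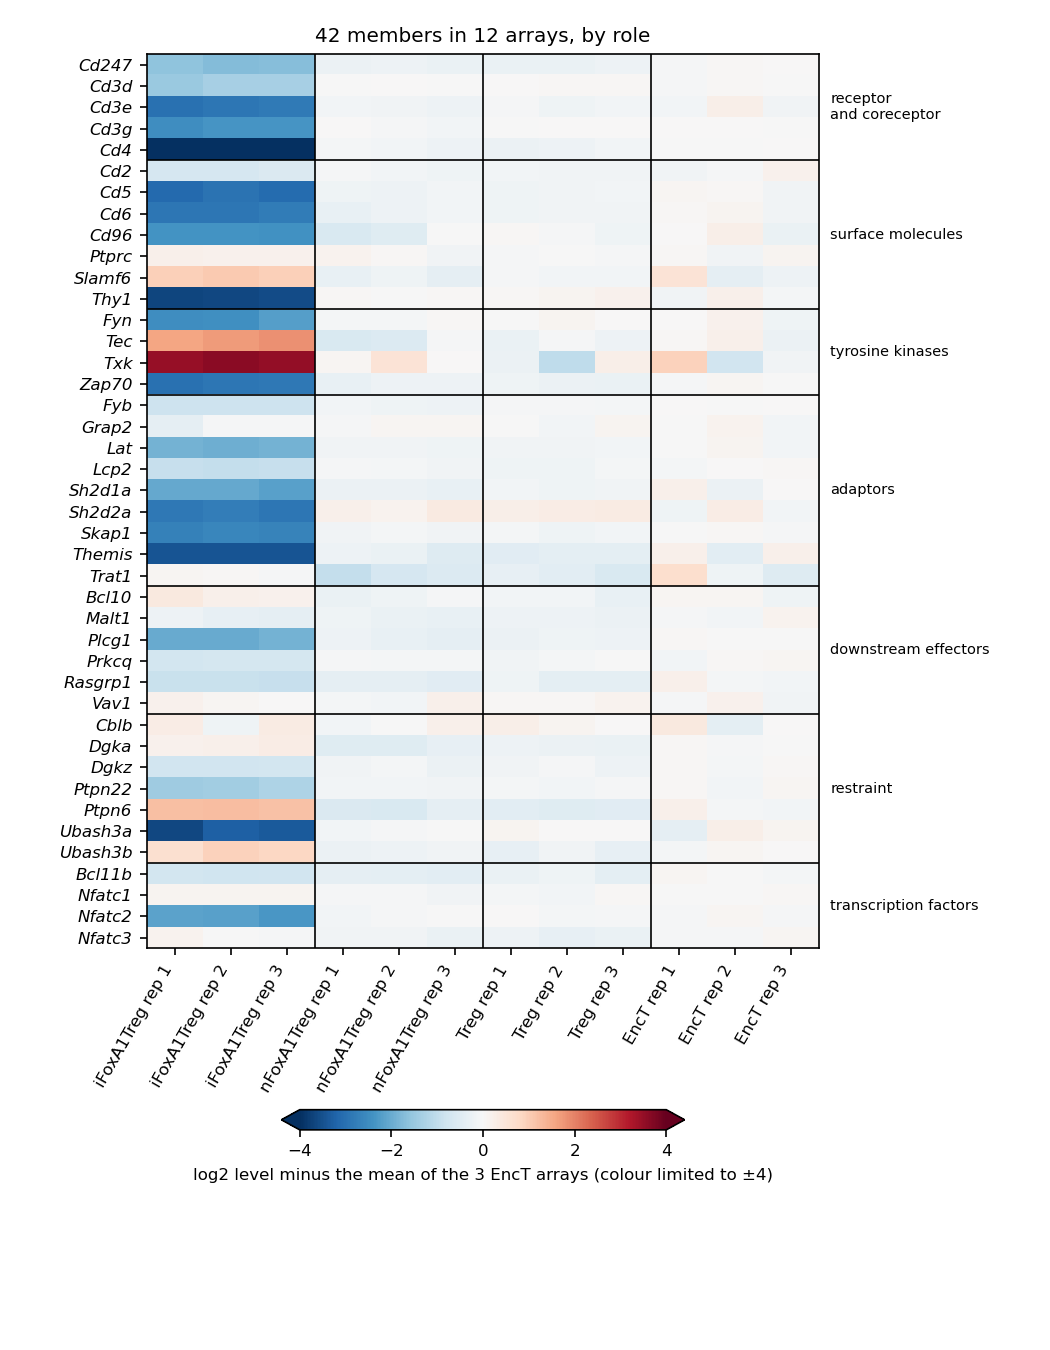
Log2 level of each of the 42 measured members in each of the 12 arrays minus the mean of the 3 EncT arrays, by role, with colours limited to a difference of 4. The 3 arrays labelled iFoxA1Treg carry nearly all of the strong colours, with Cd4 at -6.33 and Tec at 1.72 on average, while the nFoxA1Treg and Treg arrays differ from EncT by at most 0.72 on average.

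Several members lie side by side in the genome, and their promoters are shown because neighbours moved together in the arrays labelled iFoxA1Treg. Cd3g, Cd3d and Cd3e are consecutive protein-coding genes on chromosome 9, Txk and Tec on chromosome 5, and Cd5 and Cd6 on chromosome 19. Txk passed the filter on low values only through the arrays labelled iFoxA1Treg, so its higher level there beside that of Tec carries no support. The windows below are from RefSeq (build GRCm38.p6), 300 bases long from 250 bases before to 50 after the start, written 5′ to 3′ on the gene's strand, with the ETS core AGGAAG or its reverse complement CTTCCT in capitals. The Cd3e window is chr9:45009562-45009861 on the minus strand, that of Cd3d chr9:44981536-44981835 on the plus strand, and that of Cd3g chr9:44980382-44980681 on the minus strand. The Txk window is chr5:72752728-72753027 and that of Tec chr5:72868399-72868698, both on the minus strand.
Cd3e: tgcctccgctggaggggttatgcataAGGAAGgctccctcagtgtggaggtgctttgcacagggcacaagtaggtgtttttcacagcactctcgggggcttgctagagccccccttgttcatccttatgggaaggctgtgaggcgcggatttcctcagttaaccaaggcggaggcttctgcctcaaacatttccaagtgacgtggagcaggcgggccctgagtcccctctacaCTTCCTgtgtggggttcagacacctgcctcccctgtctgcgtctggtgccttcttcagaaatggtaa
Cd3d: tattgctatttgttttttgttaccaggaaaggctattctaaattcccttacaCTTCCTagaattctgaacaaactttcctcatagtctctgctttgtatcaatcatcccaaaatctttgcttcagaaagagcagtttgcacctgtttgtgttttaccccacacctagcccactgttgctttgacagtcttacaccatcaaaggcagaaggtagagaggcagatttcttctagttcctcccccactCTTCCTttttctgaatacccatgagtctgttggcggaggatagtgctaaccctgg
Cd3g: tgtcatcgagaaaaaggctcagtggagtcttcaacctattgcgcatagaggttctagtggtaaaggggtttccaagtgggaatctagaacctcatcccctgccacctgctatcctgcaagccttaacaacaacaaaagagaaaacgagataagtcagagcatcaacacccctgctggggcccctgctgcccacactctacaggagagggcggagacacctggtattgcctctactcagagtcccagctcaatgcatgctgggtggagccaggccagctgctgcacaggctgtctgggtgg
Txk: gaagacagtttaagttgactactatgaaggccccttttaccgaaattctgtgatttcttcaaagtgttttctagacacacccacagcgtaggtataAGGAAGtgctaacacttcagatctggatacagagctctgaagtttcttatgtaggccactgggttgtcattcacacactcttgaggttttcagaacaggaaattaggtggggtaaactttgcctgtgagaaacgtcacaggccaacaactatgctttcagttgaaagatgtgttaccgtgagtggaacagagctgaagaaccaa
Tec: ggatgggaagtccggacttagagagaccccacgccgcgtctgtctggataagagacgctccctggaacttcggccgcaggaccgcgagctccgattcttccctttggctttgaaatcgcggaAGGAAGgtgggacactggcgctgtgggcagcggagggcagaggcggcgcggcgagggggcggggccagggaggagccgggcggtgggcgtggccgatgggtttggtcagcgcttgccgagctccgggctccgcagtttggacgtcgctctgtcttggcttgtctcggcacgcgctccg

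Windows were found for 34 of the 43 members, Lck included, and not for Cd4, Cd2, Cd6, Thy1, Skap1, Sh2d1a, Sh2d2a, Malt1 and Nfatc1. On both strands, 22 of the 34 windows held the ETS core (64.7%), against 35.1% of the windows of 27025 genes. It was in 9 of 14 windows of members known mainly from T or NK cells and in 13 of 20 windows of members also known from B or myeloid cells. As printed above, Cd3e and Cd3d each held 2 matches, Txk and Tec held 1 each, and Cd3g held 0. The RUNX core TGTGGT was in 4 of 34 member windows (11.8%), those of Lck, Lat, Cd96 and Trat1, against 16.9% of all windows. All 4 were among the 14 windows of members known mainly from T or NK cells (28.6%), and 0 among the other 20. The E-box CAGNTG was in 55.9% of member windows and 51.1% of all windows, the TATA box TATAAA in 17.6% and 14.2%, the CCAAT box in 23.5% and 37.9%, and the NFAT core GGAAAA in 20.6% and 23.6%. The CCAAT box was in 7.14% of the 14 windows and 35.0% of the 20. ETS and NFAT cores share the letters GGAA but cannot be read from one and the same GGAA. These shares are descriptions of letters in 1 window a gene, with no test.

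The receptor core was read first across all 4 groups. Cd3d, one of the CD3 chains that carry the signal inward, had log2 levels of 10.60, 10.75 and 10.75 in the arrays labelled iFoxA1Treg, against 12.07, 12.12 and 12.06 in nFoxA1Treg, 12.11, 12.13 and 12.14 in Treg, and 12.04, 12.14 and 12.08 in EncT. Cd3e, its partner in 1 of the heterodimers, had 7.75, 7.84 and 7.90 in the arrays labelled iFoxA1Treg, against 10.61, 10.61 and 10.54 in nFoxA1Treg, 10.70, 10.56 and 10.64 in Treg, and 10.64, 10.98 and 10.58 in EncT. Cd3g had 9.53, 9.66 and 9.65 in the arrays labelled iFoxA1Treg, against 12.03, 11.96 and 11.92 in nFoxA1Treg, 11.99, 12.04 and 12.04 in Treg, and 12.03, 12.03 and 11.99 in EncT. All 3 CD3 genes were lower in every array labelled iFoxA1Treg than in any other array, and among the other 3 groups their arrays overlapped.

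Cd247, the zeta chain with the most tyrosine motifs of the complex, had log2 levels of 8.94, 8.80 and 8.83 in the arrays labelled iFoxA1Treg, against 10.31, 10.34 and 10.27 in nFoxA1Treg, 10.28, 10.27 and 10.33 in Treg, and 10.49, 10.58 and 10.56 in EncT. Zap70, the kinase that docks on phosphorylated zeta chain, had 6.92, 6.99 and 7.03 in the arrays labelled iFoxA1Treg, against 9.59, 9.70 and 9.69 in nFoxA1Treg, 9.72, 9.66 and 9.61 in Treg, and 9.85, 9.97 and 9.86 in EncT. Lat, the membrane scaffold that Zap70 phosphorylates, had 9.06, 9.01 and 9.09 in the arrays labelled iFoxA1Treg, against 10.84, 10.84 and 10.81 in nFoxA1Treg, 10.83, 10.84 and 10.86 in Treg, and 10.96, 11.08 and 10.87 in EncT. For Cd247, Zap70, Lat and Cd4, the 3 EncT arrays lay above all arrays of nFoxA1Treg and of Treg, which overlapped each other. Levels are compared here between arrays of 1 gene only, since probe sets differ in brightness for the same amount of RNA.

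**Figure D2:**
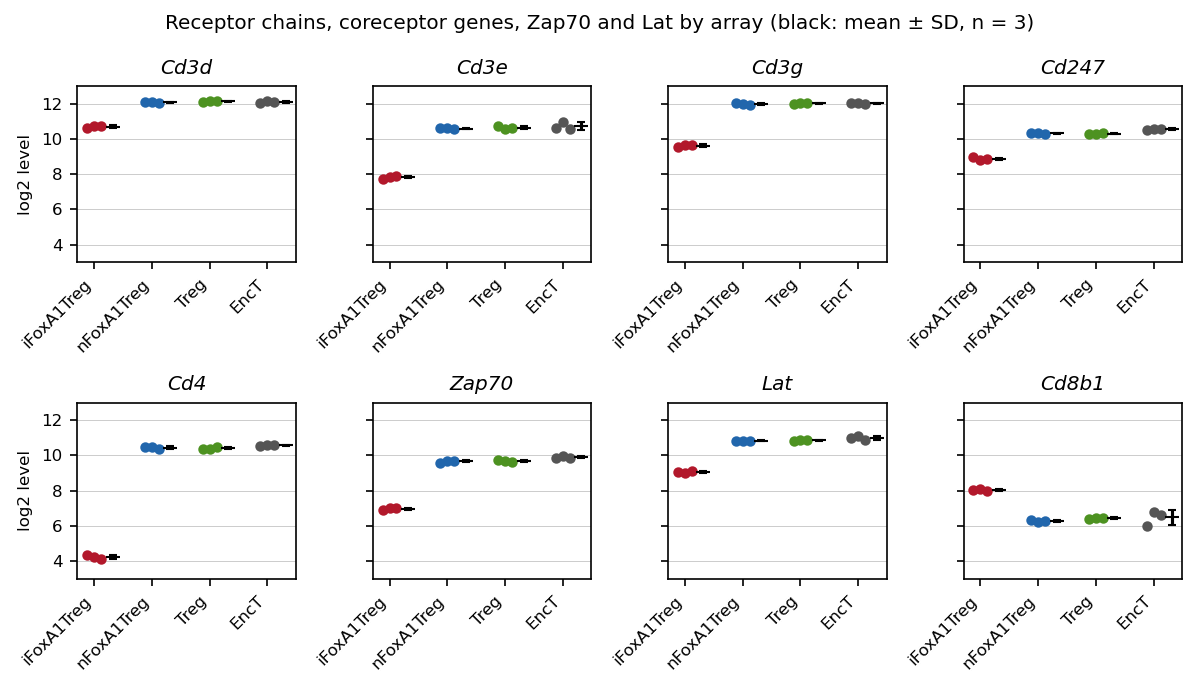
Log2 level in each of the 12 arrays, by group, for the 3 CD3 genes, Cd247, Cd4, Zap70 and Lat, with Cd8b1, a coreceptor gene that is not a member, beside them; points are arrays and black marks are means ± SD (n = 3). The arrays labelled iFoxA1Treg lie below the rest in 7 panels, most of all for Cd4, and above the rest for Cd8b1 (8.02 on average).

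In nFoxA1Treg against EncT small falls were spread over most roles, from the zeta chain Cd247 and Zap70 to Plcg1, Rasgrp1, Ptpn6 and Bcl11b. The question is how FoxA1-named regulatory cells differ from disease-driving T cells in the machinery of antigen recognition. Of the 42 members, 11 fell (26.2%) and 0 rose, where 11.2% of all 12609 genes were called lower and 8.46% higher (limma, Benjamini-Hochberg adjusted p under 0.05). At an unadjusted p under 0.05, 23 members were lower and 1, Sh2d2a, was higher, where 17.5% of all genes were lower and 14.4% higher. By the brightest probe sets no member changed as much as 2-fold, and the median difference was -0.15 over the members and -0.0045 over all genes. Another probe set of Ubash3a fell by more than 2-fold and others of Skap1 were higher, as given below. Both sets of arrays were fully separate for 18 members, all lower in nFoxA1Treg (42.9%, against 17.9% of all genes), and for 0 members higher (against 15.8%).

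Of the receptor chains, Cd247 fell by 0.24 on the log2 scale (1.18-fold lower, SE 0.048, adjusted p = 0.00475), a call that was lost with arrays centred on their medians (-0.18, adjusted p = 0.0604), while Cd3d differed by -0.0051 (95% interval -0.10 to 0.095) and Cd3g by -0.045 (-0.14 to 0.053). Zap70 fell by 0.23 (1.18-fold lower, adjusted p = 0.011), and did not pass without nFoxA1Treg replicate 1 (-0.20, adjusted p = 0.0558) or by the mean of its probe sets (-0.17, adjusted p = 0.211). Cd4 differed by -0.13 (adjusted p = 0.148), Cd3e by -0.15 (adjusted p = 0.267) and Lat by -0.14 (adjusted p = 0.0637), which did not pass the test. Thus 1 of the 5 receptor and coreceptor genes and 1 of the 4 measured kinases passed, both lower, where 11.2% of all genes were called lower. Tec, a kinase of the family that activates Plcg1, differed by -0.41 with an adjusted p of 0.0606, and its arrays overlapped.

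Larger falls in nFoxA1Treg included restraining enzymes, downstream effectors, Bcl11b and the adaptor Trat1. Ptpn6, the phosphatase SHP-1 that dampens receptor signalling in many blood cells, had log2 levels of 8.55, 8.50 and 8.77 in nFoxA1Treg, against 9.32, 9.05 and 9.02 in EncT, and was 1.43-fold lower (adjusted p = 0.00128). Dgka, which removes diacylglycerol and so restrains Ras, had 9.20, 9.20 and 9.36 in nFoxA1Treg, against 9.73, 9.66 and 9.69 in EncT (1.36-fold lower, adjusted p = 0.000275). Both groups were well apart for these 2 genes, the only members of the 7 restraining genes that passed, where 11.2% of all genes were called lower. Dgkz and Ubash3b, 2 others of that role, differed by -0.16 (adjusted p = 0.0623) and -0.20 (adjusted p = 0.133).

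Rasgrp1, the diacylglycerol-dependent activator of Ras, had log2 levels of 9.63, 9.62 and 9.54 in nFoxA1Treg, against 10.20, 9.91 and 9.87 in EncT (1.32-fold lower, adjusted p = 0.00494). Plcg1, the phospholipase that makes diacylglycerol, had 9.36, 9.27 and 9.18 in nFoxA1Treg, against 9.59, 9.55 and 9.52 in EncT (1.22-fold lower, adjusted p = 0.00406). In both genes every nFoxA1Treg array lay below every EncT array. Malt1, the protease of the NF-kappaB branch, fell by 0.25 on the log2 scale (adjusted p = 0.0259). Thus 3 of 6 downstream effectors were lower, where 11.2% of all genes were called lower. The calls of Malt1 and Rasgrp1 depend on the probe set read, as given below. Vav1, Prkcq and Bcl10 differed by 0.0094, -0.074 and -0.16, and did not pass.

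Bcl11b, a zinc finger factor needed for T cell commitment and identity, had log2 levels of 10.01, 9.97 and 9.94 in nFoxA1Treg, against 10.46, 10.35 and 10.31 in EncT (1.32-fold lower, adjusted p = 0.000852). Nfatc3, a calcium-driven factor, fell by 0.18 with an adjusted p of 0.04997, just inside the threshold. Cd6, a surface receptor of the scavenger family, lay just outside it (-0.20, adjusted p = 0.0503). Nfatc1 and Nfatc2 differed by -0.074 and -0.049 and did not pass.

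Trat1, a transmembrane adaptor that associates with the receptor, had the largest fall, at log2 levels of 6.76, 7.05 and 7.16 in nFoxA1Treg, against 8.38, 7.54 and 7.21 in EncT (1.65-fold lower, adjusted p = 0.0344). EncT replicate 1 was far above the other EncT arrays, and without it the difference was -0.39 (adjusted p = 0.0662). The call was lost under 6 of 13 alternatives. The adaptor Fyb, which links the receptor to integrins, fell by 0.17 on the log2 scale (adjusted p = 0.00711). Thus 2 of 9 adaptors passed, both lower, where 11.2% of all genes were called lower. Sh2d2a, the adaptor TSAd, was the member with the largest positive difference (0.24, 95% interval 0.021 to 0.45, adjusted p = 0.119). Of the 7 surface molecules, 0 passed in limma. At an unadjusted p under 0.05, 3 were lower (Cd5, Cd6 and Cd96), as were 17.5% of all genes, and Thy1 differed by 0.027.

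Markers of other cells also differed in level. Of 15 macrophage and monocyte markers, 5 lay above the filter level on average in nFoxA1Treg and 11 in EncT, and of 10 dendritic cell and MHC class II markers 3 did in nFoxA1Treg and 7 in EncT. Of 14 B cell markers 6 did in each group. Lyz2, Fcgr3, Cybb, Tyrobp and Fcer1g were below that level in nFoxA1Treg and above it in EncT. The summed levels are given above, and no call is drawn from markers that lie near or below the filter level. The 19 measured members known mainly from T or NK cells had summed linear levels of 27425 to 27875 in nFoxA1Treg, against 29024 to 31214 in EncT, without overlap. Of these 19 members 4 fell, and of the 23 members also known from B or myeloid cells 7 fell, where 11.2% of all genes were called lower. The part of other cells in these falls was not tested. With weights for array quality 20 members were lower and 1 higher, and with only the arrays of these 2 groups in the fit 6 were lower. Over all 12609 genes, weights gave 2619 lower and 2102 higher, and the fit of these 2 groups gave 742 lower. The main fit gave 1407 lower and 1067 higher.

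In Treg against EncT the falls were again small, and included Cd247, Zap70, Plcg1, Rasgrp1, Ptpn6 and Bcl11b. Of the 42 members, 9 fell (21.4%) and 0 rose, where 10.3% of all genes were called lower and 6.23% higher, and at an unadjusted p under 0.05 18 were lower and 1 higher, where 17.6% of all genes were lower and 12.3% higher. The median difference was -0.13 over the members and -0.0038 over all genes. Arrays did not overlap for 15 members, all lower in Treg (35.7%, against 19.2% of all genes), and for 0 members higher (against 14.1%). The 9 members were Bcl11b, Cd247, Dgka, Malt1, Nfatc3, Plcg1, Ptpn6, Rasgrp1 and Zap70. This comparison and that of nFoxA1Treg use the same 3 EncT arrays, so their calls are not independent of each other.

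Ptpn6 had log2 levels of 8.71, 8.64 and 8.68 in Treg, against 9.32, 9.05 and 9.02 in EncT (1.37-fold lower, adjusted p = 0.00376). Rasgrp1 had 9.81, 9.61 and 9.62 in Treg, against 10.20, 9.91 and 9.87 in EncT (1.24-fold lower, adjusted p = 0.0191). Bcl11b had 10.12, 10.20 and 9.98 in Treg, against 10.46, 10.35 and 10.31 in EncT (1.21-fold lower, adjusted p = 0.0083). All 3 genes were lower in every Treg array than in any EncT array. Dgka had 9.49, 9.47 and 9.43 in Treg, against 9.73, 9.66 and 9.69 in EncT (1.17-fold lower, adjusted p = 0.0134). Nfatc3 had 9.52, 9.40 and 9.47 in Treg, against 9.68, 9.68 and 9.80 in EncT (1.20-fold lower, adjusted p = 0.0125). Malt1 had 8.52, 8.51 and 8.47 in Treg, against 8.68, 8.62 and 8.88 in EncT (1.17-fold lower, adjusted p = 0.0462). These 3 were also separate between the groups. The call of Malt1 was lost under 10 of 13 alternatives and with 9 of the 12 arrays left out in turn. The difference of Malt1 turned direction, without a call, where another probe set entered, dimmer over the 12 arrays together. It was 0.27 (adjusted p = 0.246) by the probe set brightest over the 9 arrays of nFoxA1Treg, Treg and EncT. By the mean of the gene's probe sets it was 0.062 (adjusted p = 0.791), and without the arrays labelled iFoxA1Treg 0.27 (adjusted p = 0.185).

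Cd247 fell by 0.25 (adjusted p = 0.00495), Zap70 by 0.23 (adjusted p = 0.0155) and Plcg1 by 0.20 (adjusted p = 0.025) on the log2 scale. By the mean of their probe sets, Zap70 (-0.11, adjusted p = 0.457) and Rasgrp1 (-0.22, adjusted p = 0.0592) did not pass. Cd3d and Cd3g differed by 0.039 and 0.0059, Cd3e by -0.10, Lat by -0.12 (adjusted p = 0.11) and Cd4 by -0.18 (adjusted p = 0.0523). Of the 9 adaptors 0 passed in limma, with 4 lower (Lat, Lcp2, Skap1 and Themis) and 1 higher (Sh2d2a) at an unadjusted p under 0.05. Of the 7 surface molecules 0 passed either, with Cd5 and Cd6 lower at an unadjusted p under 0.05. By role, 2 of 7 restraining genes, 3 of 6 downstream effectors and 2 of 4 transcription factors fell, where 10.3% of all genes were called lower.

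Of 15 macrophage and monocyte markers 6 lay above the filter level on average in Treg and 11 in EncT, as did 6 and 7 of 10 dendritic cell and MHC class II markers and 6 of 14 B cell markers in each group, and their part in the members' falls was not tested. The members known mainly from T or NK cells summed to 28318 to 28866 in Treg, against 29024 to 31214 in EncT. The count moved with single arrays: without Treg replicate 2, and likewise without Treg replicate 3, 4 members were lower, with Zap70, Rasgrp1 and Malt1 among those lost in both cases. The lower calls over all 12609 genes moved too, from 1299 to 682 and 751. With weights for array quality 19 members were lower and 4 higher, and over all genes 2416 and 1780, where the main fit gave 1299 and 785. Without the arrays labelled iFoxA1Treg, 8 members were lower in nFoxA1Treg and 9 in Treg, both against EncT, and 0 higher in each. Of 12496 genes then tested, 1270 and 1105 were lower and 1000 and 677 higher.

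**Figure D3:**
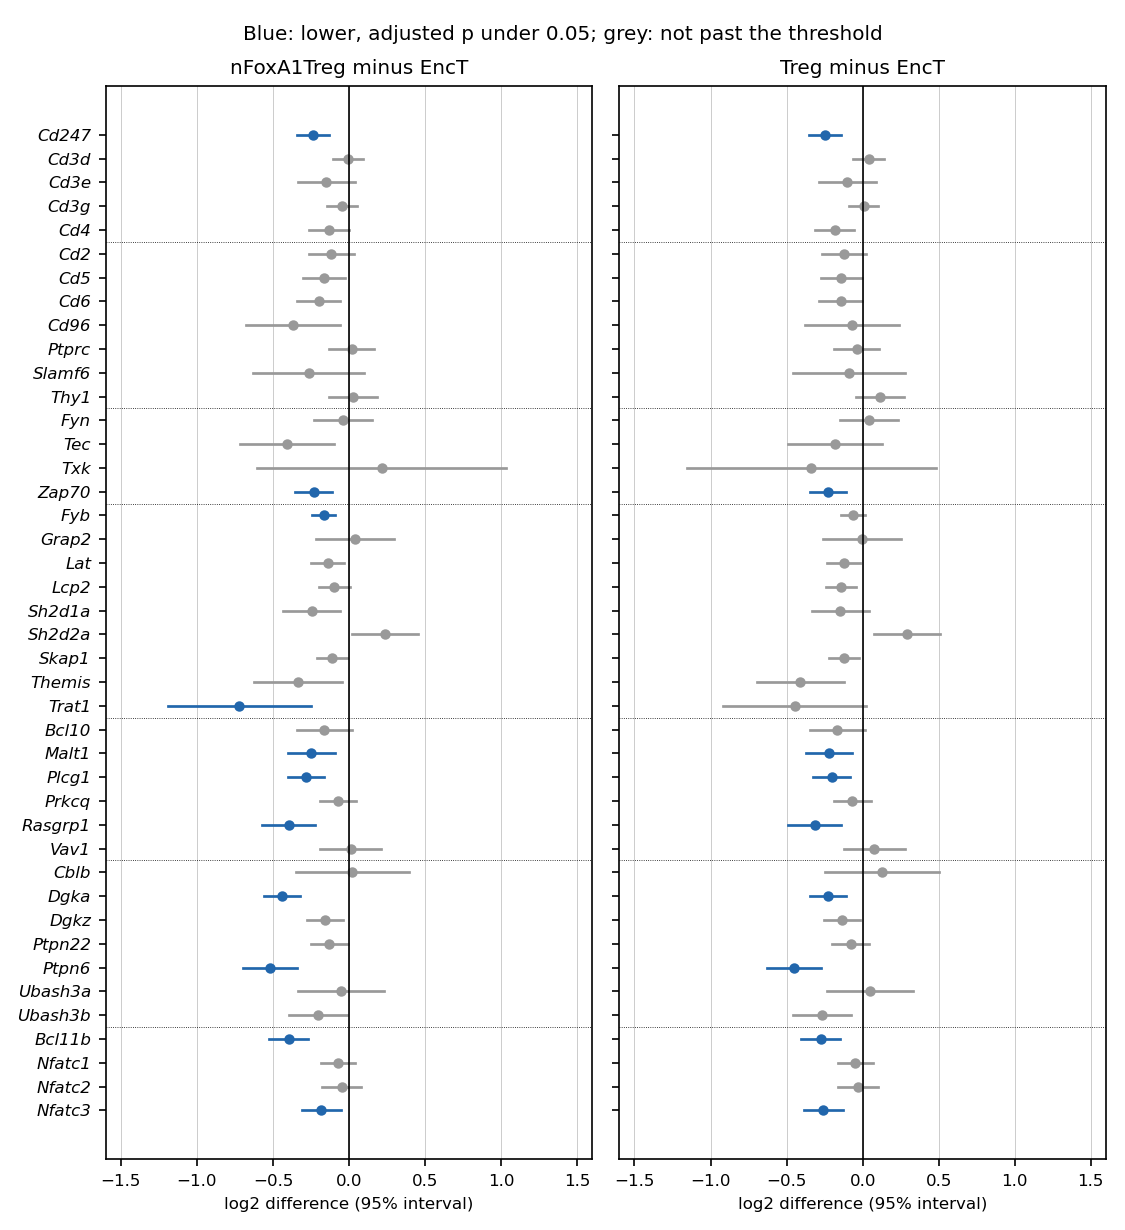
Log2 difference with its 95% interval for each of the 42 measured members, nFoxA1Treg minus EncT on the left and Treg minus EncT on the right; blue marks members called lower and grey those not past the threshold. The 11 and 9 blue members lie between -0.72 and -0.17, and both panels share the 3 EncT arrays.

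Between nFoxA1Treg and Treg no member passed the test, and the differences were small. In limma 0 of 42 members were called in either direction, where 0.00793% of all genes, 1 gene, was called lower and 0 higher. At an unadjusted p under 0.05 there were 2 members, both lower in nFoxA1Treg, where 1.84% of all genes were lower and 1.87% higher. Dgka differed by -0.21 (95% interval -0.33 to -0.094, unadjusted p = 0.00192, adjusted p = 0.9997), with levels of 9.20, 9.20 and 9.36 in nFoxA1Treg and 9.49, 9.47 and 9.43 in Treg. Fyb differed by -0.11 (interval -0.19 to -0.029, unadjusted p = 0.0113, adjusted p = 0.9997), so its call against EncT in nFoxA1Treg alone does not show that the 2 regulatory groups differ in it. Both genes were separate between the groups, as were 7 members in all, each lower in nFoxA1Treg (16.7%, against 4.67% of all genes), and 0 members were separate and higher (against 6.57%).

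The intervals bound how large a difference between the arrays of the regulatory groups could be, given a spread that may be technical. Each interval is for 1 gene and not for the members jointly. For 37 of the 42 members the 95% interval of nFoxA1Treg minus Treg lay within 0.5 of 0 on the log2 scale, and for 41 within 1 of 0, Txk, below the filter level in both groups, being the exception (0.55, interval -0.27 to 1.37). The core was bounded more tightly, with -0.14 to 0.056 for Cd3d, -0.24 to 0.14 for Cd3e, -0.15 to 0.047 for Cd3g and -0.093 to 0.11 for Cd247. It was -0.077 to 0.18 for Cd4, -0.13 to 0.11 for Zap70 and -0.12 to 0.090 for Lat. The largest negative difference was that of Cd96, a receptor of T and NK cells, at -0.30 (interval -0.60 to 0.013). The median over the members was -0.047, against 0.0061 over all genes, and with weights for array quality 1 member was lower and 0 higher. Over all genes, weights gave 10 lower and 0 higher.

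The spread between arrays was not alike in the groups. The median SD over the 42 members was 0.064 in nFoxA1Treg, 0.053 in Treg and 0.13 in EncT, and 0.065 in the arrays labelled iFoxA1Treg. EncT had the largest SD of the 4 groups for 23 members. Slamf6, a SLAM-family receptor, had 8.52, 7.59 and 7.76 in EncT, against 7.68, 7.80 and 7.60 in nFoxA1Treg and 7.90, 7.86 and 7.86 in Treg. There, as for Trat1, EncT replicate 1 was the high array. The part of this wider spread in the calls against EncT was not tested.

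The arrays labelled iFoxA1Treg differed from EncT in most of the members, as they did in most genes. Of the 42 members, 28 were lower and 8 higher, where 38.3% of all genes were called lower and 33.9% higher. At least 2-fold, 20 members were lower and 3 higher, where 14.4% of all genes were lower and 11% higher. Txk, 1 of the higher members, entered only through the arrays in which it is high, so its count carries no support. Against nFoxA1Treg 27 were lower and 11 higher (39.2% and 35.2% of all genes), and against Treg 27 were lower and 10 higher (38.4% and 35.2% of all genes). These 3 comparisons share the iFoxA1Treg arrays. The median over the members was -0.91 against EncT, where that over all genes was -0.024.

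The 7 measured genes of the core were all lower by at least 2-fold in these arrays. Cd4 fell by 6.33 on the log2 scale against EncT (80.4-fold lower, adjusted p = 3.515e-16) and its mean of 4.24 was close to the filter level. On the scale log2(value + 16), which holds back differences from dim probe sets, Cd4 differed by -5.46. Cd3e fell by 2.91 (7.50-fold lower), Zap70 by 2.91 (7.54-fold), Cd3g by 2.40 (5.28-fold), Lat by 1.92 (3.77-fold), Cd247 by 1.69 (3.22-fold) and Cd3d by 1.39 (2.62-fold). The falls thus ranged widely within 1 complex, from 2.62-fold to 7.50-fold among the CD3 chains. Against nFoxA1Treg the same genes gave -6.20 for Cd4, -2.76 for Cd3e, -2.68 for Zap70, -2.35 for Cd3g, -1.77 for Lat, -1.45 for Cd247 and -1.39 for Cd3d. Against Treg they gave -6.15, -2.81, -2.69, -2.41, -1.79, -1.44 and -1.43 in that order.

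Coreceptor genes did not move one way. Cd8b1, which is not a member, had log2 levels of 8.02, 8.08 and 7.96 in the arrays labelled iFoxA1Treg, against 6.34, 6.20 and 6.26 in nFoxA1Treg, 6.40, 6.44 and 6.47 in Treg, and 6.003, 6.80 and 6.64 in EncT. It was higher than in EncT by 1.54 (adjusted p = 8.719e-07), and Cd8a by 1.16 (adjusted p = 5.902e-05). Both CD8 chains were thus higher and Cd4 lower in every array labelled iFoxA1Treg than in any other array. The summed linear level of 9 measured CD8 T and NK cell markers, which bright genes dominate, was 1329 to 1395 in these arrays. It was 2311 to 2432 in nFoxA1Treg, 2096 to 2372 in Treg and 2265 to 3156 in EncT. Single markers did not all follow this lower sum. Of the 7 tested, 4 were higher and 1 lower than in EncT, where 33.9% of all genes were called higher and 38.3% lower. All 9 lay above the filter level in these arrays. Ncr1, Eomes and Klra8 lay below it in the other groups, so the count of higher markers carries no support.

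Surface molecules and adaptors of T cells followed the core. Thy1, a lipid-anchored glycoprotein of mouse T cells, had log2 levels of 8.59, 8.65 and 8.71 in the arrays labelled iFoxA1Treg, against 12.33, 12.25 and 12.32 in nFoxA1Treg, 12.33, 12.38 and 12.45 in Treg, and 12.14, 12.48 and 12.20 in EncT. Themis, an adaptor needed in thymic selection, had 7.25, 7.26 and 7.25 in the arrays labelled iFoxA1Treg, against 10.49, 10.44 and 10.18 in nFoxA1Treg, 10.26, 10.31 and 10.32 in Treg, and 10.92, 10.29 and 10.91 in EncT. Ubash3a, a phosphatase-like restraint on Zap70, had 5.47, 5.85 and 5.76 in the arrays labelled iFoxA1Treg, against 9.02, 9.09 and 9.12 in nFoxA1Treg, 9.24, 9.15 and 9.13 in Treg, and 8.77, 9.36 and 9.25 in EncT. These falls against EncT were 12.4-fold for Thy1, 10.9-fold for Themis and 10.8-fold for Ubash3a, with no overlap of arrays.

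Cd5, a receptor that tunes signal strength and that some B cells also carry, had log2 levels of 7.11, 7.26 and 7.12 in the arrays labelled iFoxA1Treg, against 10.04, 10.00 and 10.10 in nFoxA1Treg, 10.05, 10.08 and 10.09 in Treg, and 10.30, 10.27 and 10.07 in EncT. Its neighbour Cd6 had 6.83, 6.83 and 6.92 in the arrays labelled iFoxA1Treg, against 9.42, 9.51 and 9.59 in nFoxA1Treg, 9.54, 9.57 and 9.58 in Treg, and 9.76, 9.80 and 9.56 in EncT. Sh2d2a had 6.14, 6.22 and 6.11 in the arrays labelled iFoxA1Treg, against 9.21, 9.13 and 9.34 in nFoxA1Treg, 9.24, 9.28 and 9.32 in Treg, and 8.82, 9.27 and 8.87 in EncT. Against EncT, Cd5 was 8.27-fold, Cd6 7.22-fold and Sh2d2a 7.14-fold lower, and again no arrays overlapped. Of the 7 surface molecules 5 were lower and 2 higher against EncT (Slamf6 and Ptprc), and of the 9 adaptors 7 were lower and 0 higher. Of all genes 38.3% were called lower and 33.9% higher.

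The members that were higher include both measured Tec-family kinases. Txk, a kinase known mainly from T and NK cells in mice, had log2 levels of 7.15, 7.29 and 7.19 in the arrays labelled iFoxA1Treg, against 3.75, 4.22 and 3.68 in nFoxA1Treg, 3.44, 2.64 and 3.91 in Treg, and 4.58, 2.90 and 3.52 in EncT. Its neighbour Tec, also used by B and myeloid cells, had 8.99, 9.12 and 9.24 in the arrays labelled iFoxA1Treg, against 6.79, 6.84 and 7.34 in nFoxA1Treg, 7.13, 7.34 and 7.19 in Treg, and 7.44, 7.60 and 7.16 in EncT. Both genes were higher in every array labelled iFoxA1Treg than in any other array. Tec differed from EncT by 1.72 (SE 0.14, adjusted p = 1.256e-07). No test is given for Txk, which was below the filter level on average in the other 3 groups and passed the filter only through these arrays.

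Ptpn6 had log2 levels of 10.32, 10.38 and 10.30 in the arrays labelled iFoxA1Treg, above all arrays of nFoxA1Treg, Treg and EncT, and was 2.30-fold higher than in EncT (adjusted p = 1.869e-08). It was therefore lower than EncT in nFoxA1Treg and Treg and higher in the arrays labelled iFoxA1Treg. Slamf6 had 8.91, 9.01 and 8.92 in these arrays, 1.98-fold higher than in EncT (adjusted p = 0.000154). Ubash3b, the ubiquitously expressed relative of Ubash3a, had 7.48, 7.74 and 7.66 in the arrays labelled iFoxA1Treg, against 6.58, 6.62 and 6.68 in nFoxA1Treg, 6.49, 6.68 and 6.51 in Treg, and 6.75, 6.90 and 6.84 in EncT. The 2 relatives thus moved apart, with Ubash3b 1.74-fold higher (adjusted p = 2.469e-06) where Ubash3a was 10.8-fold lower. Bcl10, the partner of Malt1, had 10.35, 10.18 and 10.14 in the arrays labelled iFoxA1Treg and 10.06, 10.04 and 9.82 in EncT (1.19-fold higher, adjusted p = 0.0158). Dgka and Ptprc, the phosphatase CD45, were higher by 0.22 and 0.19.

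Downstream of the receptor the NFAT genes did not move alike by their brightest probe sets. Other probe sets of Nfatc1 were called both ways, as given below. Plcg1 and Nfatc2 were 3.94-fold and 4.63-fold lower than in EncT, while Nfatc1 and Nfatc3 differed by 0.12 (adjusted p = 0.0636) and 0.025 (adjusted p = 0.723). Fyn was 5.19-fold lower, and Ptpn22, a phosphatase acting on Src-family kinases, 2.54-fold lower. Prkcq, Rasgrp1, Dgkz, Fyb, Lcp2, Bcl11b, Cd2 and Malt1 were lower by less than 2-fold. Cblb, Grap2 and Vav1 did not pass in any of the 3 comparisons, with differences of 0.16, -0.15 and 0.087 against EncT. Trat1 was level with EncT (0.034) but higher than nFoxA1Treg by 0.76 (adjusted p = 0.00681) and did not pass against Treg (0.48, adjusted p = 0.0613).

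The members were also read by the cell types they are known from. Of 19 measured members known mainly from T or NK cells, 17 were lower in the arrays labelled iFoxA1Treg against EncT, with a median of -2.41, and 1 was higher, Txk, with the limit given above. Of 23 members also known from B or myeloid cells, 11 were lower and 7 higher, with a median of -0.15. Of all genes 38.3% were called lower and 33.9% higher, with a median of -0.024. The summed linear level of the 19 was 6493 to 6738 in these arrays, against 27425 to 27875 in nFoxA1Treg, 28318 to 28866 in Treg and 29024 to 31214 in EncT. Genes that do like work in B and myeloid cells (14 measured of 16 listed, Syk, Plcg2 and Blnk among them) summed to 12997 to 13225 in these arrays, against 580 to 661 in nFoxA1Treg, 609 to 633 in Treg and 690 to 746 in EncT. Of the 14, 8 lay below the filter level in nFoxA1Treg and in Treg and 6 in EncT, so those tested passed the filter largely through the arrays labelled iFoxA1Treg, and no count of calls is given for them. Syk, the relative of Zap70 in B and myeloid cells, had 11.88, 11.78 and 11.70 in the arrays labelled iFoxA1Treg and 2.73, 3.07 and 3.04 in EncT. These values, and the marker sums given above, stand beside the members' differences, and their part in them was not tested.

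**Figure D4:**
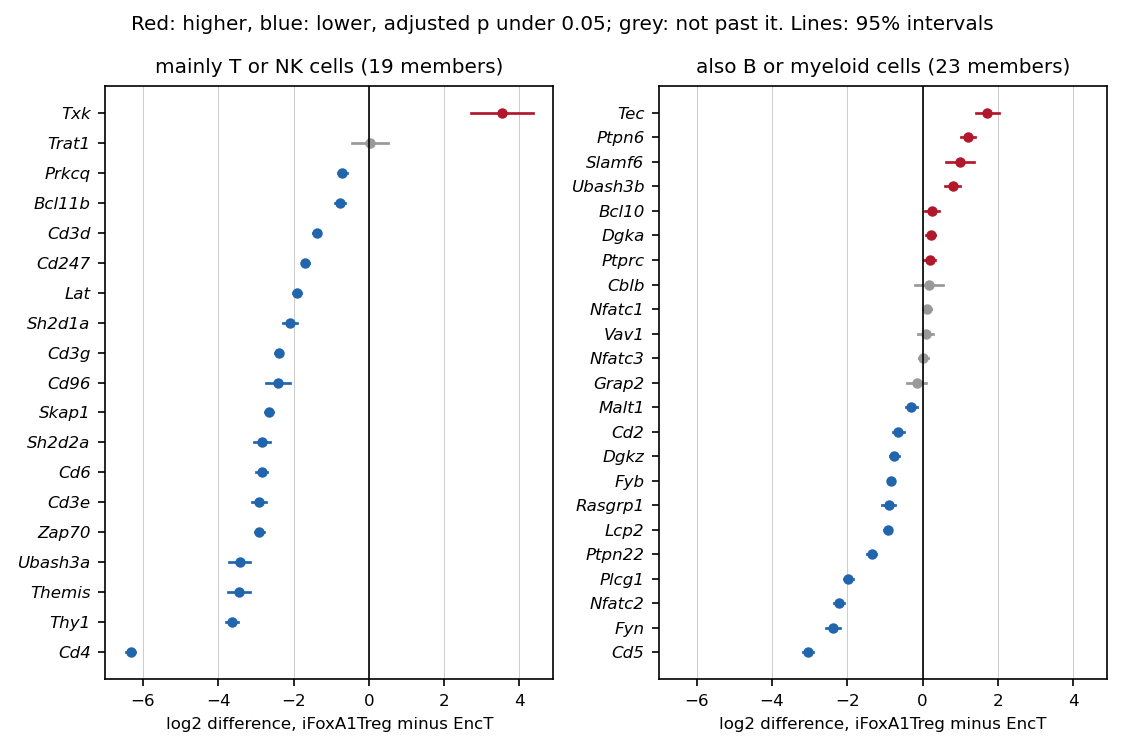
Log2 difference with its 95% interval, arrays labelled iFoxA1Treg minus EncT, for the 19 members known mainly from T or NK cells (left) and the 23 also known from B or myeloid cells (right); red marks members called higher, blue lower, grey not past the threshold. On the left 17 of 19 lie below 0, down to -6.33 for Cd4, and on the right 11 are lower and 7 higher. Of all genes 38.3% were called lower and 33.9% higher.

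The wider pathway was read from 64 further genes, of which 53 were tested. In nFoxA1Treg against EncT 8 fell and 1 rose, 17.0% in all, where 11.2% of all genes were called lower and 8.46% higher. The median was -0.067 over the list. The 3 with the smallest adjusted p were Nck1 (-0.59, adjusted p = 0.000723), an adaptor to the cytoskeleton, Sos1 (-0.55, adjusted p = 0.00156), a Ras activator, and Ptprcap (-0.29, adjusted p = 0.00346), a partner of CD45. In Treg against EncT 11 fell and 0 rose (limma), 20.8% of the list, where 10.3% of all genes were called lower and 6.23% higher. The median was -0.091, and Sos1 (-0.57, adjusted p = 0.00189), Runx1 (-0.56, adjusted p = 0.00495), a lineage factor, and Orai1 (-0.31, adjusted p = 0.00709), the calcium channel, led. Between nFoxA1Treg and Treg 0 of 53 were called. In the arrays labelled iFoxA1Treg 23 were higher and 23 lower than in EncT, where 33.9% of all genes were called higher and 38.3% lower. The median was 0.086, and Dok2 (-3.55, adjusted p = 1.787e-14), an inhibitory adaptor, the costimulatory receptor Cd28 (-2.06, adjusted p = 1.853e-12) and the tetraspanin Cd82 (-1.88, adjusted p = 2.352e-12) led. Rasgrp1 and Sos1, both Ras activators, thus fell in nFoxA1Treg and Treg, while in the arrays labelled iFoxA1Treg Rasgrp1 was lower and Sos1 higher (1.65).

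Several members had more than 1 probe set, and these did not always give the same call. There were 92 probe sets for the 42 members, 16 members with 1 and 26 with several, and 25 members had several past the filter. In nFoxA1Treg against EncT all probe sets of a gene had the same call for 16 of the 25 members, as they had in Treg against EncT. In 9 members called and uncalled probe sets stood together, and in 0 were they called in opposite directions. Bcl11b had all 4 probe sets lower, by 0.24 to 0.54 in nFoxA1Treg, and both probe sets of Ptpn6 fell, by 0.52 and 0.41.

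Skap1, an adaptor to integrins, was not called by its brightest probe set in nFoxA1Treg (-0.11), but its 2 dimmer ones were higher, by 0.60 (adjusted p = 0.0113 over all probe sets) and 0.55 (adjusted p = 0.0112). In Treg they were higher by 0.51 and 0.47. Ubash3a was level by its brightest probe set in nFoxA1Treg (-0.052), while its other probe set fell by 1.02 (adjusted p = 0.00152), and by 0.84 in Treg (adjusted p = 0.00616). Malt1 fell by 0.25 in its brightest probe set, with differences of 0.29 and 0.0073 in the others, neither past the threshold. Rasgrp1 was called in nFoxA1Treg by the brightest of its 4 probe sets, and the others, at -0.14, -0.23 and -0.25, did not pass. The calls of Skap1, Ubash3a, Malt1 and Rasgrp1 thus depend on the probe set read.

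In the arrays labelled iFoxA1Treg against EncT, 1 member, Nfatc1, had probe sets called both ways (-0.67 and 0.38). Zap70 had 2 probe sets lower, by 2.91 and 2.39, and a dimmer one that differed by 0.17 (adjusted p = 0.408). Rasgrp1 was lower in all 4 probe sets, from 0.90 in the brightest to 3.04, and Fyn in both, by 2.38 and 0.84. The second probe set of Cd4 was at 0.39 on average in these arrays, against 8.87 in EncT. For Cd4 both probe sets were lower, while for Zap70 the 2 brighter probe sets were lower and the third did not pass.

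**Figure D5:**
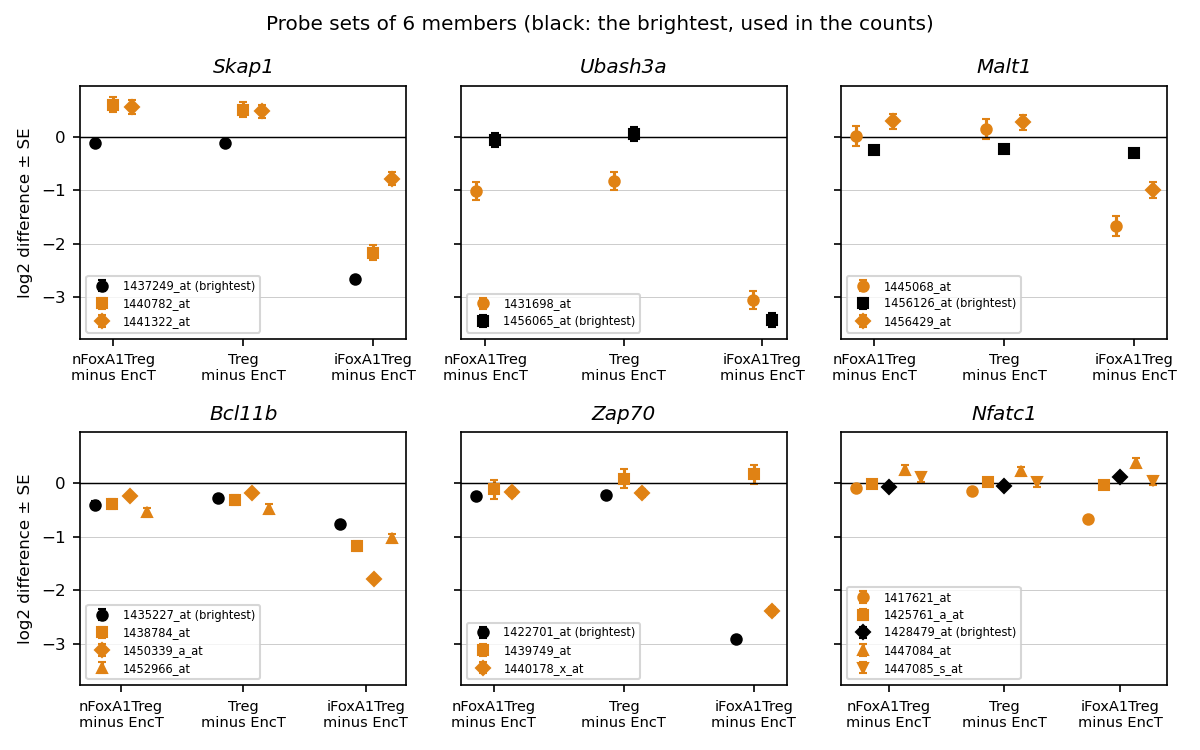
Log2 difference ± SE of every probe set past the filter for 6 members, in nFoxA1Treg, Treg and the arrays labelled iFoxA1Treg, each minus EncT; black marks the brightest probe set and orange the others. Bcl11b lies below 0 throughout, Skap1 and Ubash3a split between probe sets in nFoxA1Treg and Treg, and the third probe set of Zap70 stays near 0 (0.17) in the arrays labelled iFoxA1Treg.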

How the data were processed

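Total RNA of 12 samples was hybridised to 12 Affymetrix Mouse430_2 arrays, after Trizol extraction, DNase treatment and 3′ one-cycle amplification to biotin-labelled cRNA, per the labels' protocols. The authors deposited 1 log2 value per probe set and array, the log base being read from the values. PLIER is named in the submitters' processing notes, with no version or role, and how the values were normalized is not given in the sources used here. No scanner file was read.

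Of 45037 probe sets, 34945 named 1 gene, 932 several and 9160 none, and 34741 of the 34945 matched the gene table by Entrez identifier with 0 symbols changed. The array medians spanned 0.202, above the tolerance of 0.2, so the values were quantile normalized. The upper 60% of probe sets by mean were kept, and the brightest probe set stood for each gene. limma 3.58.1 (R 4.3.3) fitted 1 mean a group over all 12 arrays, with empirical Bayes moderation and an intensity trend, 8 residual degrees of freedom and two-sided tests, and Benjamini-Hochberg adjustment ran over 12609 genes in each of 6 comparisons at a threshold of 0.05. No depth applies to arrays, and 3 arrays a group limit the precision. The fit was tested on simulated data. Tables and plots used Python 3.11.15, pandas 2.3.3 and matplotlib 3.10.9.

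Named in full were the measured genes of the receptor core (Cd3d, Cd3e, Cd3g, Cd247, Cd4, Zap70 and Lat). Lck, also of the core, had no probe set naming it alone. In each comparison, up to 6 called rises and 6 called falls with the largest log2 difference and no overlap of arrays were also named. Other members are given by counts, ranges or single values for their role, and members with differing probe sets were picked after their values were seen. The members and all lists (cell type markers, B and myeloid counterparts, other pathway genes) were chosen with earlier results of these data known. Alternatives were other normalizations, filters, an offset of 16, other probe set rules, array weights, no trend, fewer arrays, a replicate block and each array left out in turn.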

Additional observations from a re-analysis of the deposited data

How the results depend on the processing

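The counts of members called were recomputed under 13 alternatives and with each of the 12 arrays left out in turn. With array weights, 1 member was higher and 20 lower in nFoxA1Treg against EncT, 4 higher and 19 lower in Treg against EncT, and 1 lower in nFoxA1Treg against Treg. Over all 12609 genes, weights gave 2102 higher and 2619 lower in nFoxA1Treg and 1780 and 2416 in Treg, both against EncT. The main fit gave 1067 and 1407, and 785 and 1299. Between nFoxA1Treg and Treg, weights gave 0 higher and 10 lower over all genes. With only the arrays of the 2 groups, 6 members were lower in nFoxA1Treg against EncT, as were 742 of all genes. With the mean of all probe sets, 1 member was higher in nFoxA1Treg and 1 in Treg, both against EncT, as were 995 and 713 of all genes. The cause of these shifts was not tested. With 1 array left out, 0 to 1 members were higher and 8 to 15 lower in nFoxA1Treg against EncT, 0 to 2 higher and 4 to 12 lower in Treg against EncT, and 0 to 0 in either direction in nFoxA1Treg against Treg. Over all genes the lower calls against EncT then ranged from 894 to 1579 in nFoxA1Treg and from 682 to 1514 in Treg. The highest counts of higher members, 1 and 2, came without EncT replicate 2, where 1432 and 1199 of all genes were called higher, also the most. The arrays labelled iFoxA1Treg gave 6 to 9 higher and 28 to 28 lower against EncT, 10 to 11 and 27 to 27 against nFoxA1Treg, and 9 to 11 and 27 to 27 against Treg. Over all genes the ranges were 3996 to 4296 higher and 4621 to 4848 lower against EncT. They were 4102 to 4502 and 4705 to 5004 against nFoxA1Treg, and 4121 to 4510 and 4571 to 4926 against Treg.

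Malt1 in Treg against EncT was reversed, without a call, by the probe set brightest over the other 9 arrays (0.268), by the mean of its probe sets (0.0623) and without the iFoxA1Treg arrays (0.265). By construction all 3 settings choose or combine probe sets otherwise than the main fit. Without the iFoxA1Treg arrays the brightest probe set is chosen over the other 9 arrays, so the 3 reversals are not independent. Over the 13 alternatives, 9 values of named members in nFoxA1Treg against EncT and 13 in Treg against EncT, the 3 reversed ones included, lost their call, and 1 and 4 gained one. In nFoxA1Treg 6 of the 9 were Trat1, 2 Zap70 and 1 Cd247, and in Treg 10 of the 13 were Malt1, 2 Rasgrp1 and 1 Zap70. In the arrays labelled iFoxA1Treg 1 value lost its call, Bcl10 against EncT with the values as deposited (0.181, adjusted p = 0.0566).

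The labels do not say whether replicate numbers pair the arrays. Deviations of same-numbered arrays from their group means correlated at -0.163 to 0.166, and for Treg and EncT at 0.166, 0.13 and 0.09. Arrays of different number were not compared, so these values cannot decide whether the arrays were paired. With the number as a replicate block, 0 members were higher and 10 lower in nFoxA1Treg against EncT, 0 and 9 in Treg against EncT, and 0 and 0 in nFoxA1Treg against Treg. Over all genes these fits gave 1019 and 1324, 714 and 1166, and 0 and 2. The arrays labelled iFoxA1Treg gave 8 and 28 against EncT, 11 and 27 against nFoxA1Treg, and 10 and 27 against Treg. Over all genes they gave 4252 and 4780, 4400 and 4900, and 4407 and 4807. Fitting every probe set, an alternative chosen after seeing the data, gave 10 and 8 lower in nFoxA1Treg and Treg against EncT. Of all 22420 probe sets, 2116 and 1946 were then lower. Members near the filter level, Txk and Cd4 in some groups, are limited by dim signal.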
